A study of Mus musculus with 17 samples.

Results

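The cytosolic ribosomal protein genes were read across 17 mouse T cell libraries. Genes were taken by symbol, as every gene named Rpl or Rps with a number plus Rpsa, Rplp0, Rplp1 and Rplp2, leaving out S6 kinases and symbols marked as pseudogenes. The rule took 85 of 24537 genes in each table. Of these, 43 encode large subunit proteins, 31 small subunit proteins and 3 proteins of the ribosomal stalk. The other 8 are paralogs: Rps27l, Rpl22l1, Rpl7l1, Rpl39l, Rps4l, Rpl32l, Rpl10l and Rpl3l. The 77 genes without the paralogs are called the core genes. No measured value entered the rule. Ribosomal proteins with other symbols, such as Fau, Rpl36al and Rack1 (Gnb2l1), stayed outside it.

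Each cytosolic ribosome carries a single copy of nearly every ribosomal protein, the stalk proteins Rplp1 and Rplp2 excepted, so cells make these proteins in matched amounts. Their mRNAs often begin with a run of pyrimidines, the terminal oligopyrimidine tract, through which mTORC1 and the RNA-binding protein Larp1 control their translation. In T cells, ribosome production grows on activation, downstream of Myc and mTORC1, and several paralogs replace or regulate their partners in particular tissues.

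The cells were sorted lymphocytes labelled as Th2 cells, the T helper cells that make type 2 cytokines. The mice were either Gata3-YFP reporter mice (GATIR) or carriers of the OTII T cell receptor transgene. All cells taken directly from mice came from animals whose airways were inflamed by an allergen. Reporter cells came from bronchoalveolar lavage (airway, 3 libraries) and from the mediastinal lymph node (node, 3 libraries). OTII cells of the node carried the genotype label Notch1/2-KO (4 libraries) or none beyond OTII (WT, 3 libraries). Cultured OTII cells, labelled Notch1/2-KO (2 libraries) or WT (2 libraries), started as naive spleen T cells. They spent 7 days on plates coated with anti-CD3/CD28, in IMDM medium holding IL-4 and antibodies to IL-12/23 and IFN-γ. The labels give no age, no driver of the Notch deletion and no control treatment for the reporter mice. The series text calls the replicates biological without saying whether each is its own mouse or culture, so the p-values measure only the spread between these libraries.

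The tables held RPKM, a read count divided by transcript length and by library size, which allows levels to be set side by side between genes. They rested on 16.3 to 17.5 M (megareads) per reporter library and 18.9 to 27.5 M per OTII library. Notch1 stood at 8.01 to 12.9 scaled RPKM in KO-labelled node libraries, against 46.2 to 48.9 in WT node libraries, and at 1.06 to 4.23 in KO-labelled culture libraries, against 26.3 to 29.4 in WT culture libraries. Notch2 did not follow the label: it stood at 14.1 to 18.7 in KO-labelled node libraries, against 7.53 to 8.08 in WT node libraries, and at 6.64 to 7.16 in KO-labelled culture libraries, against 7.37 to 7.65 in WT culture libraries. The labels do not say which exons were deleted, so Notch2 RPKM over a whole transcript does not check the label, and the libraries are called KO-labelled. The 6 T cell markers in the tables summed to at least 2029 in every library.

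The core genes covered a wide range of levels in each group. Group medians of scaled RPKM over the 77 core genes were 37.0 in airway, 47.1 in reporter node, 191 in KO-labelled node, 200 in WT node, 180 in KO-labelled culture and 174 in WT culture. Rps9, a small subunit protein of the body of the subunit, had the highest mean over all libraries. Its 3 airway libraries held 686, 713 and 1058 scaled RPKM and its 3 reporter node libraries 811, 737 and 660, while the 11 OTII libraries ran from 2415 through a median of 2974 to 3299. Both reporter groups of Rps9 overlapped, and every OTII library was above every reporter library.

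Next to Rps9 in mean level stood Rplp1, an acidic stalk protein that recruits translation factors, then Rpl32, with Rpl4 also among the 5 highest. Rplp1 ran from 1331 to 3772 scaled RPKM in OTII libraries and from 145 to 196 in reporter libraries. Rpl32 ran from 1620 to 2138 in OTII libraries and from 438 to 628 in reporter libraries. Rpl4, a large subunit protein, ran from 1233 to 1788 in OTII libraries and from 536 to 687 in reporter libraries. The order of these neighbours was not fixed, since Rpl32 and Rpl4 overlapped in the OTII libraries.

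At the other end, 10 core genes averaged below 10 scaled RPKM over the OTII libraries, namely Rpl5, Rpl9, Rpl10, Rpl12, Rpl21, Rpl23a, Rpl27, Rps12, Rps23 and Rps27. Rpl23a, which lies at the exit of the peptide tunnel, ran from 0.480 to 1.44 in OTII libraries, on 5 to 20 reads, and from 1.65 to 3.90 in reporter libraries, on 16 to 46 reads. Rps23, a protein of the decoding centre, held 0.193 to 1.62 in OTII libraries, on 2 to 19 reads, and 2.78 to 6.52 in reporter libraries, on 29 to 72 reads. These levels are below those of most expressed genes: among genes at 1 or more, the group medians were 12.8 to 13.1 in OTII groups and 10.8 in both reporter groups.

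**Figure D1:**
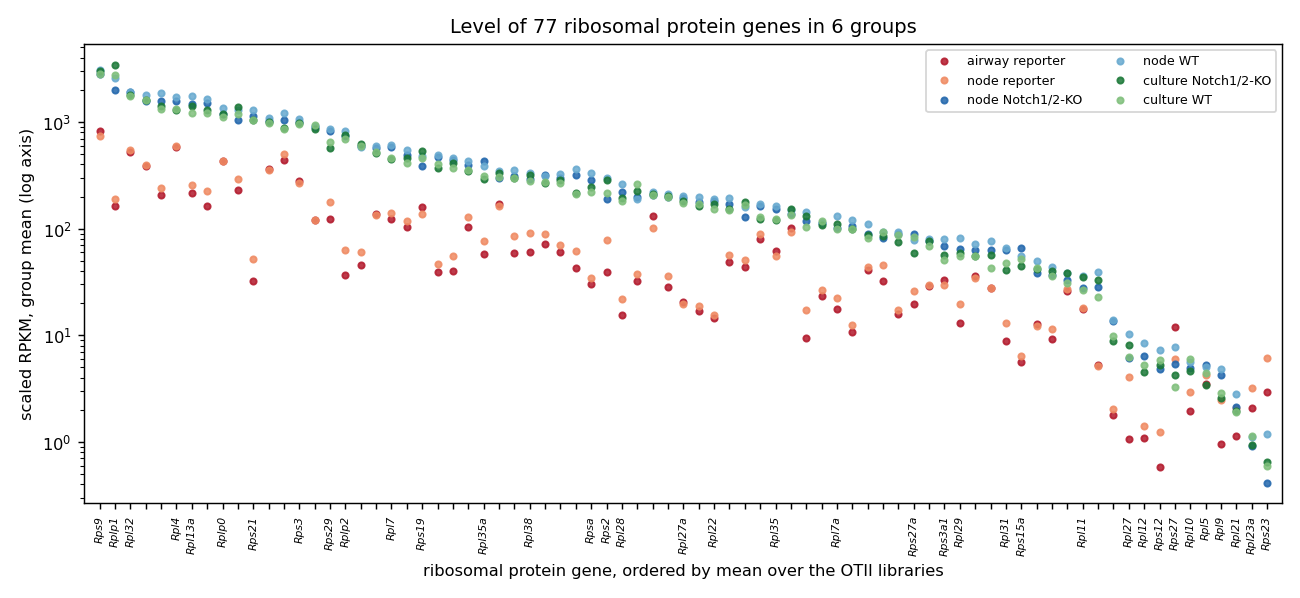
Group mean of scaled RPKM (log axis) for each of the 77 core genes, ordered by the mean over the OTII libraries, with 1 colour per group and names under the genes described in the text. The 4 OTII groups lie close together, both reporter groups lie mostly below them, and the right end holds the 10 genes whose OTII mean is below 10.

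The OTII libraries carried more ribosomal protein reads than the reporter libraries. The 85 genes took 2.59% to 3.51% of the reads assigned to genes in the 11 OTII libraries and 0.735% to 1.07% in the 6 reporter libraries. Of the summed RPKM they took 7.61% to 9.90% in OTII libraries and 1.70% to 2.53% in reporter libraries. Elongation factors moved the same way, at 1.11% to 1.68% of summed RPKM in OTII libraries and 0.357% to 0.485% in reporter libraries. Mitochondrial ribosomal protein genes held 0.658% to 0.811% in OTII libraries and 0.740% to 1.12% in reporter libraries, so those ranges overlapped.

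Within the node, the mean of the 3 WT OTII libraries over the mean of the 3 reporter libraries had a median ratio of 4.14 over the core genes, beside 0.957 over all 6715 genes at 1 or more in every library used. The ratio was above 1 for 75 core genes and below 1 for 2, Rps23 at 0.195 and Rpl23a at 0.353. It was highest for Rps21, a small subunit protein, at 24.7, followed by Rplp1 at 13.5, Rplp2 at 12.9, Rpl22 at 12.2 and Rpl28 at 12.1. Rps21 held 1247 to 1311 scaled RPKM in WT OTII node libraries and 43.8 to 58.5 in reporter node libraries. The kind of mouse, its sort, the state of its cells and the depth and gene detection of its libraries go together here and cannot be told apart, so no test was made. The proliferation marker Mki67 held 117 to 136 scaled RPKM in WT OTII node libraries and 14.7 to 24.3 in reporter node libraries. Gata3 held 51.8 to 62.2 and 340 to 442 in the same groups, and Th2 markers summed to 104 to 131 and 871 to 1403. Genes listed at 0 numbered 12177 to 14385 in reporter libraries and 9432 to 10128 in OTII libraries. Of the members, Rpl22, Rpl29, Rpl31, Rpl38 and Rpl3l were also listed under different transcripts in the 2 kinds of tables. The rank order of the core genes was close within a kind of mouse, with Spearman's rho of 0.991 between both reporter groups and 0.993 to 0.998 between OTII groups, and less so across kinds, at 0.883 to 0.913. These are descriptions across genes, which share libraries and transcript lengths.

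The low members share sequence with other annotated genes. Mouse ribosomal protein genes have many processed pseudogenes, copies of the spliced mRNA elsewhere in the genome. For each core gene, the share of all 50-base windows of its transcript found unchanged in another gene's transcript (GENCODE M21, GRCm38) was counted. Among the 10 genes with an OTII mean below 10, this share ran from 26.2% to 93.3% with a median of 57.9%, and 8 to 81 pseudogenes held such a window. Among the 14 genes at 1000 or more it ran from 0% to 60% with a median of 30.9%, and 0 to 10 pseudogenes held one. Rpl9 shared 93.3% of its windows, Rpl10 92.1%, Rps12 83.6% and Rpl23a 82.6%, while Rps3 shared 2.96%.

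Across the core genes, Spearman's rho of level against this share was -0.45 in OTII libraries and -0.33 in reporter libraries. With 75-base windows it was -0.57 in OTII libraries and -0.44 in reporter libraries. With the core genes cut into 3 parts by this share, the median OTII level was 86.9 scaled RPKM in the 25 genes of largest share, 303 in the 26 of middle share and 332 in the 26 of smallest share. Level and share did not always go together. Rpl21 shared 26.2% of its windows and averaged 2.24 in OTII libraries, though 81 pseudogenes held a window of its 1856-base transcript. Rplp1 shared 60%, with 4 such pseudogenes, and averaged 2548. Against the number of pseudogenes holding a 50-base window, rho of level was -0.58 in OTII libraries and -0.50 in reporter libraries. How the authors' aligner and counting treated reads with several positions is not given in the sources used here, and the part of shared sequence in these levels was not tested. For 61 of 85 members the GENCODE transcript was within 10% of the deposited length, and over the 55 core genes among them rho was -0.41 in OTII libraries and -0.31 in reporter libraries.

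Rpl23a shows what such sharing looks like. The first 90 coding bases of the gene on chromosome 11 (chr11:78180936-78183584, mm10) and of the processed pseudogene Rpl23a-ps3 (chr14:34170655-34171122) are printed in lower case throughout, since they have 0 mismatches.
Rpl23a: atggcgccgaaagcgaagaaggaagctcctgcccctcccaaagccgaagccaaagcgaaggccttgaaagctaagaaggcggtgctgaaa
Rpl23a-ps3: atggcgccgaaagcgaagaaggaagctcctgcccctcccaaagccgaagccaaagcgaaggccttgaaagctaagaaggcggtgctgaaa
A read that falls within this stretch matches both genes equally. In all, 28 pseudogenes held a 50-base window of Rpl23a, 22 of Rps12 and 120 of Rpl7a.

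**Figure D2:**
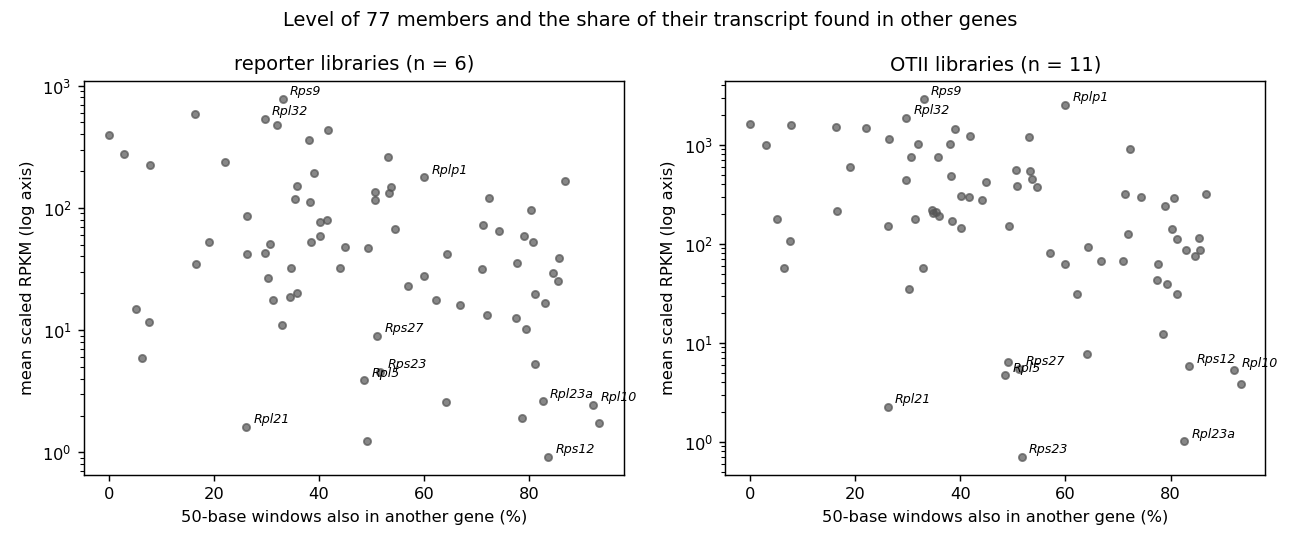
Mean scaled RPKM (log axis) of each of the 77 core genes against the percentage of its 50-base windows found in another gene, in the 6 reporter libraries (left) and the 11 OTII libraries (right). Points at the lower right, such as Rpl10, Rps12 and Rpl23a, have low levels and shares above 80%, and Rpl21 is low at 26.2%.

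The start regions of these genes were set beside those of all promoters. RefSeq start regions (GRCm38.p6) matched 64 members, 57 of them core genes. In the window from 35 bases before to 25 bases after the start, a run of at least 8 C or T stood in 29 of 57 core genes (50.9%) and in 33 of 64 members (51.6%), against 7806 of 32851 promoters (23.8%). The letters CTTTCC on the sense strand stood in 15.8% of core genes and 2.91% of all promoters in that window. Over 300 bases and both strands, CCGGAAG, the core of ETS family motifs, stood in 38.6% of core genes and 8.86% of all promoters, and GGGCGG, the core of the SP1 motif, in 61.4% and 35.7%. AAGATGGC, the core of the YY1 motif, stood in 8.77% of core genes and 2.75% of all promoters, and TATAAA in 10.5% and 13.6%. Overlaps between motifs were not removed.

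Shown are genes whose levels changed in the comparisons, the Rpl22 pair, and examples of long runs. Each line reads 5′ to 3′ on the gene's strand, with the annotated start at base 36 and the longest pyrimidine run in capitals. Where runs of the same length tie, as in Rps27l and Rpl22, only the first is in capitals.
Rps27l, chr9:66946051-66946110, plus strand: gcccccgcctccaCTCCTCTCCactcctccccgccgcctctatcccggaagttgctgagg
Rps27, chr3:90213624-90213683, minus strand: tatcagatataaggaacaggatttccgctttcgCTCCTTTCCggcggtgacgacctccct
Rpl27, chr11:101442210-101442269, plus strand: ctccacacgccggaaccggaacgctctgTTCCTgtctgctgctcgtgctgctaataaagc
Rps12, chr10:23787185-23787244, minus strand: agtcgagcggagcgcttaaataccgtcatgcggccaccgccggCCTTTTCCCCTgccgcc
Rps3a1, chr3:86142644-86142703, minus strand: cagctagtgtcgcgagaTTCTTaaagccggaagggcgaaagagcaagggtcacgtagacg
Rpl35, chr2:39005107-39005166, minus strand: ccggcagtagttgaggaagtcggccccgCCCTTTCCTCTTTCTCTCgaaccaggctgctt
Rpl27a, chr7:109519160-109519219, plus strand: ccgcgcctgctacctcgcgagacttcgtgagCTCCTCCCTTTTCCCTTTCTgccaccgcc
Rpl22, chr4:152324401-152324460, plus strand: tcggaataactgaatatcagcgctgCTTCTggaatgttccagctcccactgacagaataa
Rpl22l1, chr3:28805473-28805532, plus strand: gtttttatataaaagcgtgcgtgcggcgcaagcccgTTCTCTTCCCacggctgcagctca
The run spans the annotated start in Rps27 (9 bases), Rpl35 (18 bases) and Rpl27a (20 bases). It lies upstream of the start in Rps27l (9 bases), begins at the base after it in Rpl22l1 (10 bases) and further downstream in Rps12 (11 bases). The longest runs of Rpl27, Rps3a1 and Rpl22 have 5 bases. Annotated starts need not be the starts used in these cells, and a match is a description of these letters.

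The paralog pairs differed in which gene was the higher one. Rps27l, known as a p53 target in human cells, stood far above Rps27, its zinc finger partner on the small subunit, in every library. Median ratios of Rps27l to Rps27 were 17.1 in airway, 32.4 in reporter node, 9.83 in KO-labelled node, 9.62 in WT node, 22.7 in KO-labelled culture and 30.0 in WT culture. Rps27 rests on 33 to 110 reads in OTII libraries and 57 to 185 in reporter libraries, shares 51.1% of its windows with other genes and is listed under a noncoding accession. The first 90 coding bases of Rps27 (chromosome 3) and Rps27l (chromosome 9) differ at 24 positions, in capitals, and their 252 coding bases at 60.
Rps27: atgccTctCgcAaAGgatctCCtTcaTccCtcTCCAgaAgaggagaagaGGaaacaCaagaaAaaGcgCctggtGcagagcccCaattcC
Rps27l: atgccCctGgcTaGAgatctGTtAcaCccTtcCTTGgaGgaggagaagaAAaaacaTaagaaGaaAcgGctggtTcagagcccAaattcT
The mismatches are spread along the stretch, so most of this pair can be told apart by sequence.

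Rpl22l1 and Rpl22, a pair known for distinct roles in mouse T cell development, were more even. Median ratios of Rpl22l1 to Rpl22 were 1.59 in airway, 2.08 in reporter node, 0.466 in KO-labelled node, 0.579 in WT node, 0.367 in KO-labelled culture and 0.566 in WT culture. Rpl22 is among the genes listed under another transcript in reporter tables, with close lengths of 2217 bases there and 2147 bases in OTII tables. Rpl7l1 ran below Rpl7 in every library, with median ratios of 0.188 in airway and 0.311 in reporter node and 0.0540 to 0.0754 in the 4 OTII groups. Rpl10l, a testis gene in mice, was listed at 0 in all 17 libraries. Rpl3l, known from muscle, reached at most 4 reads, Rpl32l at most 0.875 scaled RPKM and Rpl39l, another testis gene, at most 2.67.

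Relative to the median of all members in each group, Rps23, Rps27l, Rps27, Rpl23a and Rps21 varied most across the 6 groups, with ranges of 4.25, 4.08, 3.77, 3.07 and 2.92 on the log2 scale. For all 5 the range was set mainly by the difference between reporter and OTII tables, which was not tested. The median of all members itself moved between reporter and OTII groups. Rpl10l, without a read in any library, had a range of 2.42 on the same scale. The ranges of members on few reads, such as Rpl23a and Rps23, therefore include this shift of the median. Like Rps23 and Rpl23a, Rps27l was higher in mean in the reporter groups than in the OTII node groups: it averaged 183 ± 13.7 in airway and 186 ± 11.4 in reporter node (SD, n = 3 each), against 51.1 ± 5.88 in KO-labelled node (SD, n = 4) and 70.8 ± 1.56 in WT node (SD, n = 3).

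In the node, KO-labelled OTII cells were set against WT OTII cells. Of 81 members tested, 5 fell and 0 rose, while 7.68% of all 10869 genes tested fell and 10.4% rose. The 5 were Rps27l, Rpl27, Rps12, Rps19 and Rps27. At an unadjusted p under 0.05 there were 14 of 81 members and 3504 of 10869 genes. Small negative differences were general: 74 of 81 fold changes were negative, with a median log2 fold change of -0.17 over the members and 0.02 over all genes tested. By class, the medians were -0.17 over 43 large subunit genes, -0.16 over 30 small subunit genes tested and -0.20 over the 3 stalk genes. Tests were two-sided and made with limma on the log2 of scaled RPKM plus 1, and p-values were adjusted by Benjamini-Hochberg across every tested gene. A gene rose or fell where its adjusted p was below 0.05.

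Rps27l (chr9:66946076-66949522) held 56.7, 53.3, 51.3 and 42.9 scaled RPKM in KO-labelled node libraries, against 71.7, 71.7 and 69.0 in WT node libraries. The groups did not overlap, and its log2 fold change was -0.47 (SE 0.10, limma adjusted p = 0.0114). Rpl27 (chr11:101442245-101445596), a large subunit protein mutated in some human Diamond-Blackfan anaemia families, held 8.14, 4.93, 6.15 and 5.33 in KO-labelled libraries, against 10.4, 12.2 and 8.42 in WT libraries. These groups did not overlap either, at a log2 fold change of -0.68 (SE 0.17, limma adjusted p = 0.0247). Rpl27 rests on 73 to 190 reads in OTII libraries and shares 64.1% of its windows with other genes.

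Rps12 (chr10:23785183-23787209), a protein of the small subunit beak, held 3.65, 5.33, 4.90 and 5.62 in KO-labelled libraries, against 6.32, 7.79 and 7.76 in WT libraries. Every KO-labelled value lay below every WT value, with a log2 fold change of -0.50 (SE 0.14, limma adjusted p = 0.0365). Rps12 rests on 39 to 86 reads in OTII libraries and shares 83.6% of its windows with other genes. Like Rpl27 and Rps27, it is among the core genes averaging below 10 in OTII libraries. Rps19 (chr7:24884714-24889802), the small subunit gene most often mutated in human Diamond-Blackfan anaemia, was the abundant one among the 5, at 436, 356, 394 and 351 in KO-labelled libraries, against 468, 498 and 470 in WT libraries. Its groups were apart by a small gap, and its log2 fold change was -0.32 (SE 0.09, limma adjusted p = 0.0458). Rps27 (chr3:90212667-90213648) averaged 5.42 ± 0.961 in KO-labelled libraries (SD, n = 4) and 7.85 ± 1.0 in WT libraries (SD, n = 3), with a log2 fold change of -0.47 (SE 0.14, limma adjusted p = 0.0485). Groups did not overlap in 9 of 81 members, all lower in KO-labelled libraries, where 14.1% of all genes did so downwards and 17.2% upwards.

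Rps2, an abundant protein of the mRNA entry, averaged 191 ± 60.7 in KO-labelled libraries (SD, n = 4) and 301 ± 51.7 in WT libraries (SD, n = 3) and did not pass the test (log2 fold change -0.69, SE 0.24, limma adjusted p = 0.0749). Rplp1 averaged 1978 ± 524 in KO-labelled libraries and 2573 ± 230 in WT libraries, with overlapping groups and a log2 fold change of -0.42 (limma adjusted p = 0.191). Of the 23 members named in every comparison, 21 were tested here, and the 19 that did not pass ran from -0.42 in Rplp1 to 0.18 in Rps27a, which is made as a fusion with ubiquitin. All 5 calls were lost with WT replicate 2 left out and with the replicate number as a block, where 0 members fell. Every other left-out library moved the count too: 12 fell without KO-labelled replicate 1, 8 without replicate 2 and 2 without replicate 3 or 4, and 3 without WT replicate 1 or 3. Without a filter on low values 1 of 84 members fell, beside 861 of 16890 genes. Genes that fell over the whole table, 835 in the main fit, numbered 402 without WT replicate 2 and 255 with the block. They ran from 402 to 1157 over the libraries left out in turn.

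Other genes of ribosome production and translation were read in the same comparison, where 7.68% of all genes fell and 10.4% rose. Of 30 ribosome biogenesis genes, 17 fell and 0 rose, including Nolc1 (-0.76), Mrto4 (-0.72) and Polr1b (-0.71, a subunit of RNA polymerase I), all as log2 fold changes. Of 77 mitochondrial ribosomal protein genes tested, 12 fell and 0 rose. Of 8 elongation factor genes 4 fell, among them Eef1d at -0.31 and Eif5a at -0.55, and of 32 initiation factor genes 3 fell, namely Eif4a1 at -0.56, Eif3b at -0.48 and Eif3d at -0.31. Of 16 genes of mTORC1 and TOP control, 2 fell, Larp1 at -0.45 and Eif4ebp2 at -0.31, and 1 rose, Rptor, the mTORC1 subunit that binds its substrates, at 0.59. Of 4 genes of the Myc network, Myc fell at -0.67 and Mxd4, a repressor that competes for the same partner, rose at 0.76. Of 9 genes around Mdm2 and p53, Rrs1, an assembly factor for Rpl5 and Rpl11, fell at -0.73 and the p53 target Bbc3 rose at 0.56, all as log2 fold changes. Of 24 cell cycle genes 5 fell and 0 rose. The difference in share between the lists and the members was not tested. The lists were written from general knowledge, with earlier results of these data known.

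Markers of the sorted cells and of other cells differed in this comparison too. Of 5 Th2 markers 3 fell and 0 rose, their summed level running from 55.9 to 89.5 in KO-labelled libraries and from 104 to 131 in WT libraries. Dendritic cell markers summed to 83.1 to 108 in KO-labelled libraries and 136 to 148 in WT libraries, with 1 of 3 tested lower and Cd209a listed at 0 in both groups. Macrophage markers summed to 43.3 to 62.2 in KO-labelled libraries and 57.4 to 76.2 in WT libraries, with 1 of 3 tested lower (Cd68, log2 fold change -0.95) and Ear2 listed at 0 in both groups. The 1 basophil and mast cell marker tested, Hdc, fell at -1.38, and that list summed to 0.134 to 0.713 in KO-labelled libraries and 1.93 to 2.49 in WT libraries, with Mcpt8, Fcer1a, Prss34 and Ms4a2 listed at 0 in both groups. Of 4 B cell markers 0 passed. Of 6 T cell markers 1 rose, and the T cell sums were 2717 to 3309 in KO-labelled libraries and 2615 to 2840 in WT libraries. Their part in the ribosomal protein values was not tested.

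**Figure D3:**
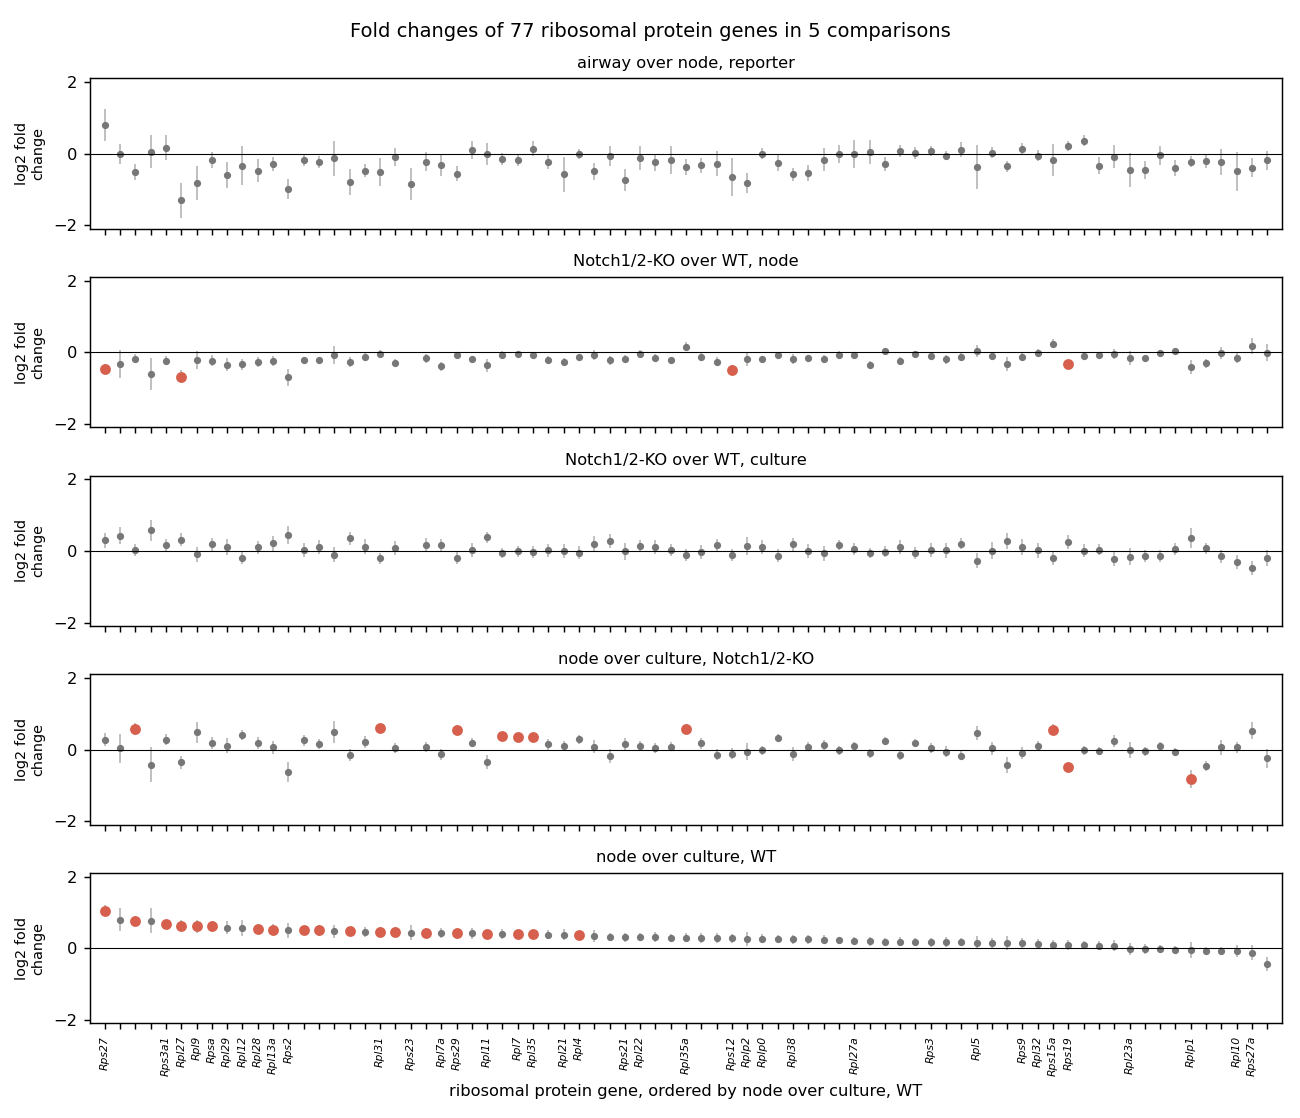
Log2 fold change (point) with its standard error (line) of the core genes tested in 5 comparisons, ordered by the bottom panel, with members past the threshold as larger red points and names under the genes described in the text. In the second panel most points lie slightly below 0, and in the bottom panel most lie above 0. Rps27l and the other paralogs are not drawn.

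The column names in the deposited tables tie 6 of the 7 OTII node libraries into 3 pairs, each with a shared name and a final 1 or 2, and the remaining WT library ends in 1. Across the core genes, the deviation of a library from its group mean followed the GC content of the transcript, in opposite directions within each pair. Deviations from a group mean cancel out within the group, so opposite signs within a group are partly by construction. Spearman's rho was 0.53 and 0.49 in the KO-labelled libraries ending in 1 and -0.57 and -0.24 in those ending in 2. In the WT pair it was 0.45 for the library ending in 1 and -0.42 for that ending in 2, and 0.02 in the unpaired WT library. GC content of the core genes ran from 41.3% to 60.8% with a median of 51.6%. What the shared name and the final digit stand for is not given in the sources used here. If libraries with a shared name came from 1 source, the n of 4 and 3 in the node would count fewer independent samples.

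The fold change between KO-labelled and WT node libraries also followed GC, with rho of -0.45 over 76 core genes: the median was -0.22 in the 38 genes at or above the median GC and -0.10 in the 38 below it. Among libraries ending in 1 (2 KO-labelled, 2 WT), the median difference over 81 members was -0.09, with 65 negative. Among those ending in 2 (2 KO-labelled, 1 WT) it was -0.27, with 69 negative. Rps27l differed by -0.40 and -0.52 within the same strata, and Rpl27 by -0.60 and -0.62. With the final digit as a term in the limma fit 9 members fell, and with paired libraries averaged 11 fell. Those fits were chosen after the data were seen, and the part of GC in the fold changes was not tested.

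**Figure D4:**
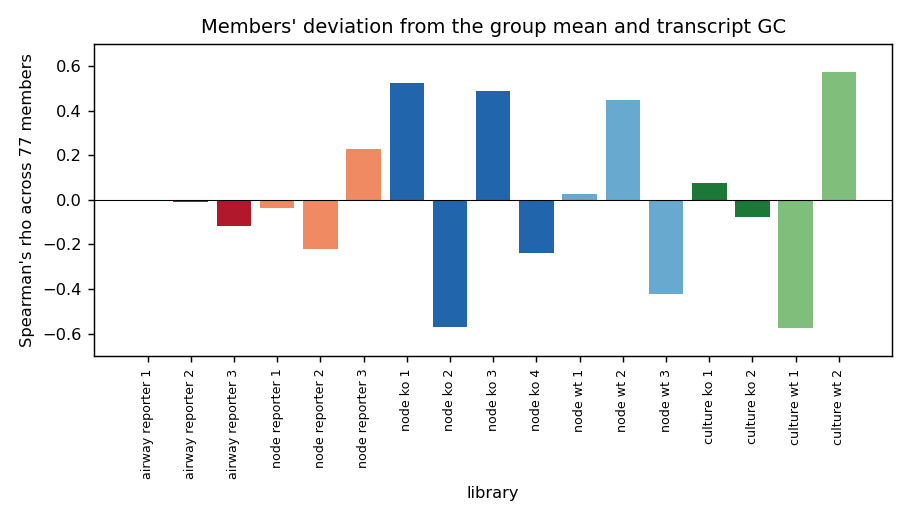
Spearman's rho, across the 77 core genes, between each library's deviation from its group mean and transcript GC content. In the KO-labelled node group (node ko 1 to 4) and in node wt 2 and 3 the sign alternates between libraries with paired names. Deviations cancel out within each group, so opposite signs within a group are partly by construction. With 2 libraries, the culture groups mirror each other by construction.

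In culture, KO-labelled cells were set against WT cells to see whether the same genes differ without the tissue. No member passed the test, with 0 of 80 rising and 0 falling, as for 0% of all 10968 genes. At an unadjusted p under 0.05 there were 2 members and 256 genes, with 14 members and 1781 genes without WT replicate 2 and 0 members without WT replicate 1. The 2 were Rpl11, which with Rpl5 forms a particle that can bind Mdm2, at 35.2 ± 0.330 in KO-labelled and 26.8 ± 1.71 in WT libraries, and Rps27a, at 59.5 ± 3.11 in KO-labelled and 84.4 ± 20.9 in WT libraries (SD, n = 2 each). Their log2 fold changes were 0.38 and -0.48, and the limma adjusted p of both was 0.9997. The median over members was 0.03, with 50 positive and 30 negative, and over all genes 0.00. Groups did not overlap in 10 members upwards and 10 downwards, where 10.4% and 10.8% of all genes did so. The members' median changed sign with the library left out: it was -0.08 without WT replicate 1 or KO-labelled replicate 1 and 0.14 without WT replicate 2 or KO-labelled replicate 2.

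Whether the KO-labelled difference itself was unlike between node and culture was tested with an interaction term over the 11 OTII libraries. Of 82 members 0 passed in either direction, where 2.35% of all 11508 genes passed upwards and 1.49% downwards. At an unadjusted p under 0.05 there were 8 of 82 members and 2144 of 11508 genes. The median over members was -0.23, with 65 negative and 17 positive, and over all genes 0.02. Single libraries moved these values: the members' median was -0.10 without WT or KO-labelled culture replicate 1 and ran from -0.32 to -0.10 over the 11 libraries left out in turn. Members at an unadjusted p under 0.05 numbered 6 to 20 with a node library left out in turn, beside 1611 to 2352 genes. Rpl27 had the smallest adjusted p (interaction -0.99 on the log2 scale, SE 0.26, limma adjusted p = 0.0664), as it was lower in KO-labelled cells in the node and, at 8.06 ± 0.962 against 6.26 ± 0.470 in WT, higher in mean in culture (SD, n = 2 each). Rps27 followed at -0.77 (SE 0.24, limma adjusted p = 0.111). One member passed downwards when KO-labelled node replicate 1 or WT culture replicate 2 was left out, or with paired libraries averaged. Over 76 core genes the culture fold change followed GC with rho of 0.45, and over 77 the interaction with rho of -0.47.

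Node cells were also set against cultured cells of the same genotype label, a comparison of cells from inflamed animals with cells driven to Th2 in a dish. These comparisons use the same libraries as those above. In WT cells, 19 of 82 members rose in the node and 1 fell, where 13.5% of all 11108 genes rose and 17.5% fell. At an unadjusted p under 0.05 there were 36 of 82 members and 4789 of 11108 genes. The median log2 fold change was 0.27 over members, with 71 positive and 11 negative, and -0.03 over all genes. Groups did not overlap in 49 members upwards and 1 downwards, where 27.1% and 30.8% of all genes did so.

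Rps27 rose most in WT node cells: it held 7.36, 9.0 and 7.17 scaled RPKM in the node, against 2.92 and 3.65 in culture. The groups were well apart, at a log2 fold change of 1.05 (SE 0.15, limma adjusted p = 0.00193). Rps3a1, a small subunit protein by the mRNA exit, held 78.6, 83.0 and 80.1 in the node, against 53.2 and 47.5 in culture, a log2 fold change of 0.67 (SE 0.10, limma adjusted p = 0.00232). Rps27 and Rps3a1 did not overlap between groups, and each kept its call in all 16 other settings.

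Rpl27 rose with a log2 fold change of 0.63 and Rpl9, a large subunit protein at the base of the stalk, with 0.61, with means of 10.4 ± 1.90 and 4.88 ± 0.688 in the node (SD, n = 3) and 6.26 ± 0.470 and 2.87 ± 0.828 in culture (SD, n = 2). In OTII libraries Rpl27 rests on 73 to 190 reads and Rpl9 on 33 to 97. Also past the threshold were Rpsa (0.61), Rpl13a (0.51), Rpl11 (0.40) and Rpl7 (0.40), all as log2 fold changes. Rps27l went the other way, at 71.7, 71.7 and 69.0 in the node, against 109 and 82.6 in culture. It fell with a log2 fold change of -0.42 (SE 0.13, limma adjusted p = 0.0456), and 11 of 16 other settings ended that call. The count of 19 rested on single libraries: 5, 3 and 8 members rose without WT node replicates 1 to 3 in turn. Genes that rose over the whole table, 1502 in the main fit, numbered 888, 894 and 919 in the same fits. Leaving out a WT culture replicate left 1 library in that group. The members' median was then 0.21 without replicate 1 and 0.39 without replicate 2. Of the 3 stalk genes none passed, Rplp1 lying at 2766, 2635 and 2319 in the node, against 2031 and 3492 in culture, where the replicates stood apart.

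In KO-labelled cells, 8 of 81 members rose in the node and 3 fell, where 13.7% of all 11227 genes rose and 15.3% fell. At an unadjusted p under 0.05 there were 17 of 81 members and 4508 of 11227 genes. The median was 0.07 over members, with 50 positive and 31 negative, and -0.02 over all genes. Groups did not overlap in 17 members upwards and 4 downwards, where 23.8% and 25.9% of all genes did so. The 8 included Rpl31, Rpl35a, Rps15a, Rps29 and Rpl35, with log2 fold changes from 0.61 in Rpl31 to 0.34 in Rpl35.

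Rpl31, a large subunit protein near the tunnel exit, held 58.3, 69.8, 58.4 and 66.4 in the node, against 41.0 and 41.1 in culture (log2 fold change 0.61, SE 0.11, limma adjusted p = 0.0047). Rps29, a zinc-binding protein of the small subunit head, averaged 819 ± 16.7 in the node (SD, n = 4) and 566 ± 36.2 in culture (SD, n = 2). Rpl35a and Rps15a had log2 fold changes of 0.57 and 0.55. The groups of each of these genes were apart.

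Among those lower in the KO-labelled node, Rps27l held 56.7, 53.3, 51.3 and 42.9 in the node, against 81.7 and 113 in culture, with a log2 fold change of -0.90 (SE 0.16, limma adjusted p = 0.00393). Rplp1 averaged 1978 ± 524 in the node (SD, n = 4) and 3433 ± 479 in culture (SD, n = 2) and fell with a log2 fold change of -0.83 (SE 0.25, limma adjusted p = 0.0398). Rps19 averaged 384 ± 39.4 in the node (SD, n = 4) and 536 ± 10.9 in culture (SD, n = 2) and fell with a log2 fold change of -0.49 (SE 0.12, limma adjusted p = 0.0197). Rpl31 and Rps27l kept their calls in all 17 other settings. With the replicate number as a block 1 member rose and 2 fell. The members that rose numbered 5, 9, 3 and 2 without KO-labelled node replicates 1 to 4 in turn, and 2 and 1 without culture replicates 1 and 2, and those that fell numbered 5, 5, 2 and 1, and 1 and 1. The median was -0.02 without culture replicate 2.

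The WT and KO-labelled node against culture comparisons share no library. Members that rose in both numbered 5, among them Rpl31, Rpl35 and Rps29, 26.3% of the 19 in WT and 62.5% of the 8 in KO-labelled cells. Rps27l alone fell in both. Of 81 members tested in both, 46 were positive in both and 7 negative in both, and rho between the fold changes was 0.32 across these members. The same overlap and rho over all genes are not given here. These values therefore do not show whether the agreement is particular to the members.

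Related genes were set beside the shares over all genes, which were 13.5% higher and 17.5% lower in WT and 13.7% higher and 15.3% lower in KO-labelled cells. In KO-labelled cells, 0 of 30 ribosome biogenesis genes rose and 8 fell, and in WT cells 7 rose and 1 fell, the 8 including Nop56 at -1.35 and Bysl at -1.06. For this list the interaction passed in 3 genes, Mrto4 (-0.81), Bysl (-0.77) and Nolc1 (-0.74), all downwards on the log2 scale. Of 77 mitochondrial ribosomal protein genes, 13 rose and 1 fell in WT cells (median 0.20). In KO-labelled cells 4 rose and 4 fell (median -0.08). Of 32 initiation factor genes 6 rose and 0 fell in WT cells, and 2 rose and 1 fell in KO-labelled cells. Of 8 elongation factor genes 3 rose and 1 fell in WT cells, and 0 rose and 1 fell in KO-labelled cells. Of 5 genes of the Myc network, 2 rose and 1 fell in WT cells, and 2 rose and 3 fell in KO-labelled cells. Cell cycle genes fell in 15 of 24 in KO-labelled cells and 9 of 24 in WT cells, and 0 rose in either. Of 9 genes around Mdm2 and p53, 3 fell and 0 rose in each genotype: Cdkn1a (-2.69), Bbc3 (-1.65) and Rrs1 (-0.70) in KO-labelled cells, and Cdkn1a (-2.66), Bbc3 (-1.61) and Ccng1 (-0.88) in WT cells, as log2 fold changes. The medians of that list were -0.31 in KO-labelled and -0.06 in WT cells. Rps27l fell in both too, though most other settings ended its call in WT cells. In KO-labelled against WT node, where Rps27l also fell, Bbc3 rose. A link between Rps27l and the genes of that list was not tested.

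Cell type markers differed between node and culture as well. In KO-labelled cells, T cell markers rose in 4 of 6, Th2 markers rose in 2 of 4 and fell in 1, and B cell markers rose in 3 of 4. In WT cells, T cell markers rose in 3 of 6 and fell in 1, Th2 markers rose in 3 of 5, and B cell markers rose in 2 of 3. T cell sums were 2717 to 3309 in KO-labelled node and 2029 to 2412 in KO-labelled culture, and 2615 to 2840 in WT node and 2039 to 2217 in WT culture. B cell sums were 14.4 to 19.3 in KO-labelled node and 8.77 to 14.0 in KO-labelled culture, and 13.7 to 16.9 in WT node and 8.24 to 10.6 in WT culture. Dendritic cell sums were 83.1 to 108 in KO-labelled node and 153 to 182 in KO-labelled culture, and 136 to 148 in WT node and 75.04 to 129 in WT culture. Macrophage sums were 43.3 to 62.2 in KO-labelled node and 48.7 to 55.8 in KO-labelled culture, and 57.4 to 76.2 in WT node and 49.5 to 52.4 in WT culture, where Lyz2 was listed at 0. Of the basophil and mast cell markers, 1 was tested in KO-labelled cells, Cpa3, which fell at -2.72 on the log2 scale. In WT cells 2 were tested and went in opposite directions, Cpa3 falling at -3.37 and Hdc rising at 1.32. Their part in the ribosomal protein values was not tested.

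**Figure D5:**
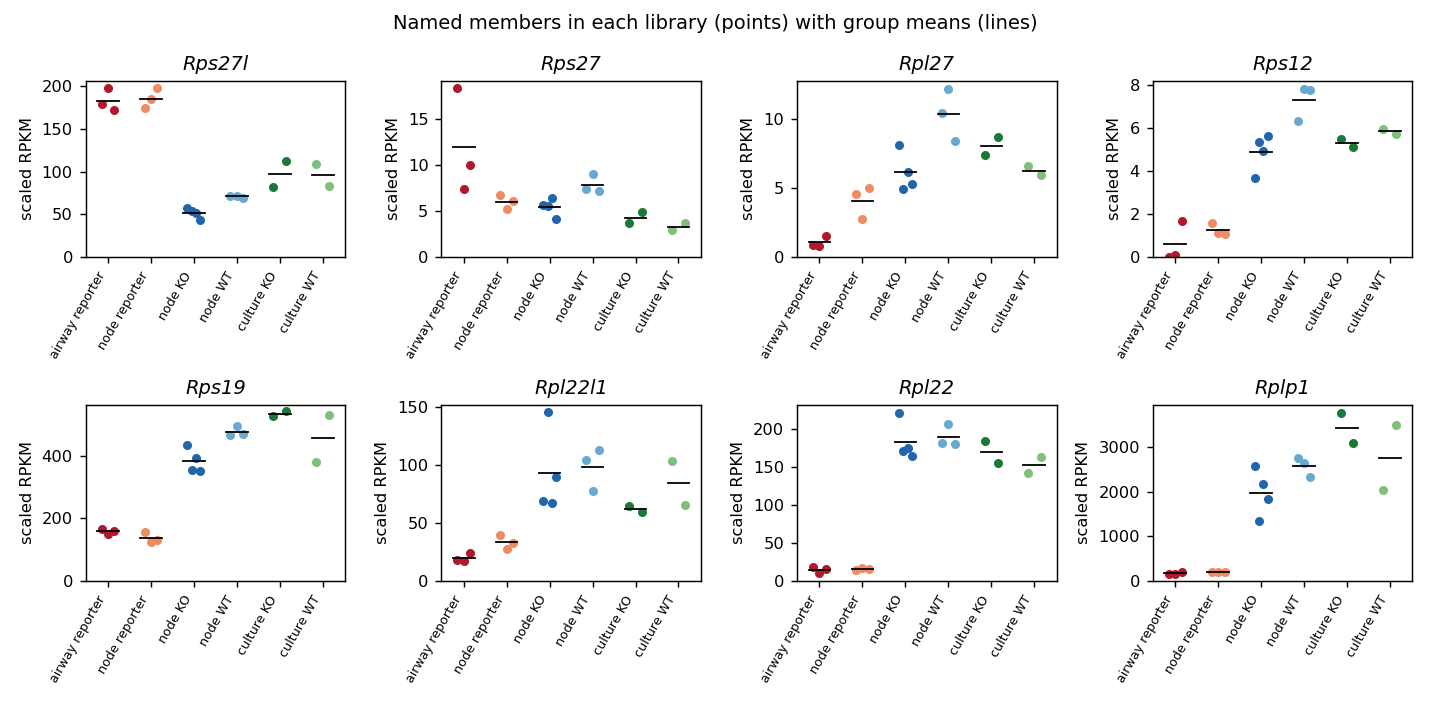
Scaled RPKM of 8 members in each library (points) with group means (lines), groups from left to right as airway and node of reporter mice, then KO-labelled and WT node, then KO-labelled and WT culture. Rps27l is highest in reporter cells, near 183 to 186, while Rps19, Rpl22, Rpl22l1 and Rplp1 are lowest there.

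In reporter mice, airway cells were set against node cells, the comparison of Th2 cells that reached the lung with those still in the node. No member passed the test: of 81 tested, 0 rose and 0 fell, where 2.97% of all 10111 genes rose and 2.3% fell. At an unadjusted p under 0.05 there were 11 of 81 members and 2016 of 10111 genes. Fold changes leaned downwards, with 67 negative, 14 positive and a median of -0.23 over members and -0.07 over all genes. The members' median was -0.15 without airway replicate 2, -0.16 without node replicate 1 and -0.35 without airway replicate 3. Members at an unadjusted p under 0.05 numbered 2 without node replicate 1, 6 without node replicate 2 and 7 without airway replicate 2. Genes at that level numbered 1459, 1556 and 2188 in the same fits. Genes called over the whole table, 300 higher and 233 lower, became 83 to 288 higher and 30 to 295 lower with a library left out, and no member passed in any of those fits. With RPKM as deposited the medians were -0.37 over members and -0.20 over all genes, and with equal sums of RPKM -0.33 and -0.16, so the gap between both was near that of the first scaling. That choice also moved the share of higher genes among those called, from 56.3% to 41.9% with RPKM as deposited and 45.9% with equal sums. Groups did not overlap in 2 members upwards, Rps27 among them, and in 19 downwards, where 13.1% and 13.8% of all genes did so.

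Rps2 came nearest to the threshold: it held 34.9, 29.4 and 53.4 in airway, against 101.2, 60.8 and 71.8 in reporter node, with a log2 fold change of -0.99 (SE 0.28, limma adjusted p = 0.0881). Its groups did not overlap. Rplp2, the partner of Rplp1 in the stalk, held 24.1, 35.9 and 51.0 in airway, against 71.6, 57.9 and 61.2 in node (log2 fold change -0.82, SE 0.28, limma adjusted p = 0.145), and Rplp0, the stalk's scaffold, differed by -0.00. Rpl27 held 0.859, 0.784 and 1.52 in airway, against 4.57, 2.72 and 5.0 in node (log2 fold change -1.30, SE 0.49, limma adjusted p = 0.181), on 11 to 73 reads.

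Rpl22l1 held 18.2, 17.3 and 23.8 in airway, against 39.6, 27.7 and 32.6 in node, at a log2 fold change of -0.72 (SE 0.27, limma adjusted p = 0.180). Rps27 had the largest positive value, at 18.4, 7.44 and 10.1 in airway, against 6.72, 5.20 and 6.10 in node, where 1 airway library stood well above the others (log2 fold change 0.81, SE 0.45, limma adjusted p = 0.372). The members took 0.735% to 0.932% of gene reads in airway and 0.869% to 1.07% in node, ranges that overlap. Genes listed at 0 numbered 14256, 14385 and 12317 in airway replicates 1 to 3 and 12177 to 12982 in reporter node. The part of gene detection in these values was not tested. In bulk samples fewer cells of a type and less RNA per cell cannot be told apart.

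Other cells and the cell cycle moved with this comparison. All 8 macrophage markers tested were higher in airway, their summed level over 11 genes running from 3445 to 7734 in airway and from 80.8 to 125 in node, where Marco, Mrc1, Adgre1, Itgax and Ear2 were listed at 0. Basophil and mast cell markers summed to 148 to 276 in airway and 554 to 880 in node, with Fcer1a, Prss34 and Ms4a2 listed at 0 in both groups. T cell markers summed to 3161 to 3520 in airway and 2911 to 3283 in node. Of 24 cell cycle genes 19 fell in airway, and of 29 ribosome biogenesis genes 2 fell, Bop1 at -1.43 and Nop58 at -1.93 on the log2 scale. Their part in the ribosomal protein values was not tested.

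The fold changes were also set out by the pyrimidine run at the start. Core genes with a run of at least 8 had a median log2 fold change of -0.16 between KO-labelled and WT node (29 genes), and those without -0.18 (27 genes). In culture, between KO-labelled and WT, they were 0.11 with a run and 0.02 without, and for the interaction -0.33 with a run and -0.18 without. Between node and culture they were 0.04 with a run and 0.10 without in KO-labelled cells, and 0.27 with a run and 0.29 without in WT cells. Between airway and reporter node they were -0.19 with a run and -0.27 without. No difference between genes with and without a run was tested. These medians describe RNA levels, whereas control through the tract acts on translation, which was not measured.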

How the data were processed

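Smart-seq2 RNA libraries of 17 sorted or cultured mouse T cell samples were analysed in 6 groups. The authors deposited RPKM for 24537 genes per library on mm10; per the submitters' processing notes, HISAT2 2.0.4, HOMER and DESeq2 were used, with roles, strand and read length not given in the sources used here. Multiplied by transcript length, low values came out as whole numbers of 1 read (tolerance 0.1, below 100 reads), which gave the reads per gene and a depth of 16.3 to 27.5 M (megareads) per library; these cover counting error only.

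RPKM was scaled by median-of-ratios over 6796 genes at 1 or more in all libraries, 72 of them members. Tests used limma 3.58.1 in R 4.3.3 (lmFit, eBayes with trend) on log2(scaled RPKM + 1), which understates changes of low genes. A gene was tested if scaled RPKM reached 1 in at least as many libraries as in the smaller group (2 of 11 for the interaction). The fit was checked on simulated data. Named members were a fixed set of 23, up to 10 called per comparison (otherwise the 5 highest and 5 lowest), and those of extreme level or range; other members, such as Rps2 and Rpl28, were added after their values were seen. Some members are not reported here by name. Members, lists and tests were chosen with earlier results of these data known. Sequences are from GENCODE M21 and RefSeq (GRCm38.p6). Alternatives were other scalings, pseudocounts, filters, variance models, blocks and left-out libraries.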

Additional observations from a re-analysis of the deposited data

Results flagged for a closer look

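Members' values in groups of 4 libraries were looked at, 42 groups in all, for a library far from the others, where chance marks about 1 in 20. The marks numbered 2, both in KO-labelled node replicate 2, the deepest library. Rpl5 stood at 7.55 scaled RPKM there, against 4.41, 4.49 and 4.56 in the other KO-labelled node libraries, with a gap of 0.953 of the range. Rpl10 stood at 6.16 there, against 4.43, 4.52 and 4.52, with a gap of 0.947 of the range. Rpl5 binds the smallest ribosomal RNA, and Rpl10 is a late-joining large subunit protein. Both average below 10 in OTII libraries, and that library's deviations followed GC with rho of -0.57. The cause was not tested.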

How the results depend on the processing

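Of the members recomputed under every setting, which were the fixed set and those the naming rule took (Rpl35, for one, was outside), none past the threshold changed direction, while the members' median in culture ran from -0.08 to 0.14 over left-out libraries. For KO-labelled over WT node, the 5 members that fell became 1 with no filter on low values, 0 with the replicate number as a block, 11 with paired libraries averaged, 9 with the final digit as a term, and 0 to 12 over libraries left out one at a time. Genes that fell over the whole table, 835 in the main fit, became 861, 255, 834 and 1057 in the same settings in turn. They ran from 402 to 1157 over left-out libraries. For node over culture in WT, the 19 that rose became 3 with no filter, 6 with paired libraries averaged and 3 to 33 with a library left out. The 1 that fell became 0 with RPKM as deposited, equal sums, no filter, eBayes without trend, all OTII libraries in 1 fit and paired libraries averaged, and 0 to 2 with a library left out. For node over culture in KO-labelled cells, the 8 that rose became 5 with RPKM as deposited, 4 with no filter, 1 with the replicate block and 2 to 9 with a node library left out. Genes that rose over the whole table, 1537 in the main fit, became 1407, 1531, 934 and 1097 to 2006 in turn. The 3 that fell became 7 with paired libraries averaged and 1 to 5 with a node library left out. Genes that fell, 1714 in the main fit, became 2016 and 1268 to 2229 in turn. The median over all 81 members of 0.07 ran from -0.020 to 0.19 with a library left out. For the interaction, 0 became 1 with paired libraries averaged and 0 to 1 with a library left out. The cause was not tested, except that fewer samples enter where libraries are left out or averaged.

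The labels do not tie replicate numbers across groups. Same-numbered libraries correlated at 0.005 to 0.027 in airway and node, -0.32 to -0.06 in KO-labelled and WT node, -0.19 in culture, 0.07 to 0.08 in KO-labelled node and culture and -0.01 to 0.33 in the WT pair, so the numbers were not taken as a pairing. Other-numbered KO-labelled and WT node libraries correlated at -0.39 to 0.50. The highest were KO-labelled replicate 2 with WT replicate 3 (0.50) and KO-labelled replicate 1 with WT replicate 2 (0.44), which share a final digit in their column names. KO-labelled replicate 4 and WT replicate 3, also of the same digit, stood at 0.005. In culture the replicate block gave 0 members and 31 genes higher and 34 lower, and with numbers crossed, added after the data were seen, 0 members and 3 genes higher and 5 lower. Low members rest on few reads, such as Rps23 on 2 to 19 in OTII libraries, where differences are hard to detect.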
